A study of Homo sapiens with 84 samples.

Results

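The 7 genes described here encode the small MAF proteins MAFF, MAFG and MAFK, the cap'n'collar factors BACH1, NFE2L1 (NRF1) and NFE2L2 (NRF2) that pair with them, and KEAP1, the adaptor that holds NFE2L2 back. They were taken by name, 7 of the 57964 genes in the table, and all 7 were expressed well enough to be tested in both cell lines. These names were chosen by values in counts scaled to a common library size (CPM) across all 28 groups. In particular, the set was selected on a difference between early and late MAFK values in NCI-H1373. The treatment, time and vehicle values of MAFK in NCI-H1373, and the change of response with time in that line for every gene, are therefore given as a description with no test. The tests that remain use the same libraries as that choice. Their p-values are not independent of it and may be too small. MAFK did not bear out a response that was mainly early: its pooled log2 difference from vehicle in NCI-H1373 was 0.98 ± 0.50 (SE of the fit) at 6 h and −1.82 ± 0.36 at 24 h, of opposite sign and larger at the later time.

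The study treated NCI-H1373 and NCI-H647, established human non-small cell lung cancer lines, with 2 inhibitors of PARP7, an enzyme that adds single ADP-ribose units to proteins and is the product of the TIPARP gene. Each line received RBN-2397 at 10, 30 or 300 nM, RBN012337 at 3, 10 or 100 nM, or DMSO as the vehicle, for 6 or 24 h, which makes 14 groups per line, each of 3 libraries with replicate numbers 1 to 3, and 84 libraries in all. No genetic change is labelled in either line, and no culture, plate or day is given for any replicate number. Every p-value therefore reflects library-to-library spread, and that spread may be technical. The assay counted the 3' ends of transcripts in bulk RNA, in which fewer cells and less RNA per cell cannot be told apart.

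Small MAF proteins carry a basic leucine zipper for DNA binding and dimerisation but no activation domain, so what a bound dimer does depends on its partner. NFE2L2 and NFE2L1 activate genes through antioxidant response elements, NFE2L2 chiefly those of glutathione, NADPH and detoxification pathways and NFE2L1 chiefly those of proteasome subunits, whereas BACH1 represses overlapping genes and leaves DNA when it binds haem. KEAP1 presents NFE2L2 to a CUL3 ubiquitin ligase for degradation, and loss of this control through KEAP1 or NFE2L2 mutation is a well-known feature of lung cancers. Much of this control acts on the proteins, and only transcripts were measured here.

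On GRCh38 with GENCODE 29 annotation, MAFF (ENSG00000185022.11) lies on chromosome 22 from 38200767 to 38216511 on the plus strand and MAFG (ENSG00000197063.10) on chromosome 17 from 81918270 to 81927714 on the minus strand. MAFK (ENSG00000198517.9) lies on chromosome 7 from 1530714 to 1543043 on the plus strand. BACH1 (ENSG00000156273.15) spans 29194071 to 29630751 of chromosome 21 on the plus strand. NFE2L1 (ENSG00000082641.15) lies on chromosome 17 from 48048329 to 48061487 on the plus strand and NFE2L2 (ENSG00000116044.15) on chromosome 2 from 177227595 to 177392697 on the minus strand. KEAP1 (ENSG00000079999.13) lies on chromosome 19 from 10486120 to 10503741 on the minus strand. Values are for whole genes, so exons, introns and untranslated regions are not separated. The handling of strand is not given, so BACH1, with sense intronic and antisense transcripts in its locus, and MAFG, with a divergent antisense neighbour, are uncertain where reads could be shared.

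BACH1, NFE2L2, NFE2L1 and MAFG are the genes that were lower after 24 h of treatment in at least 1 line, and the 250 bases before a transcription start of each are shown for that reason. The sequences are RefSeq windows on GRCh38.p14, available for 6 of the 7 genes and not for MAFK, and are printed 5′ to 3′ on the gene's strand. Capitals mark matches, on either strand, to the AP-1 or MAF recognition core TGANTCA, the antioxidant response element core TGACNNNGC, or the aryl hydrocarbon receptor core GCGTG.
BACH1, chr21:29298672-29298921 (plus strand): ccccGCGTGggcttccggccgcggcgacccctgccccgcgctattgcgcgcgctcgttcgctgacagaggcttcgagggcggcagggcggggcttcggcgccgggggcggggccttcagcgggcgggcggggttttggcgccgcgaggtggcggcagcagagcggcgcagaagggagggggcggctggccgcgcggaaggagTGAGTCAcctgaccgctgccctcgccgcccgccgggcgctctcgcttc
NFE2L2, chr2:177264728-177264977 (minus strand): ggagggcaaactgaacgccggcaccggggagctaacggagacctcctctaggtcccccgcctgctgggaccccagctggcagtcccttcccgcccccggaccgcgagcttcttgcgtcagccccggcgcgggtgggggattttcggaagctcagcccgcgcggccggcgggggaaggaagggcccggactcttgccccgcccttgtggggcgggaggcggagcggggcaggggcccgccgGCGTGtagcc
NFE2L1, chr17:48048109-48048358 (plus strand): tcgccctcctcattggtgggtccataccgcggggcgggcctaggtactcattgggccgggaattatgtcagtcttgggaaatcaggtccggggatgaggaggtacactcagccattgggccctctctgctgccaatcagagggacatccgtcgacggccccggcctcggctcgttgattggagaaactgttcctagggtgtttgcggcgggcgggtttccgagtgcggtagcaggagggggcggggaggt
MAFG, chr17:81927736-81927985 (minus strand): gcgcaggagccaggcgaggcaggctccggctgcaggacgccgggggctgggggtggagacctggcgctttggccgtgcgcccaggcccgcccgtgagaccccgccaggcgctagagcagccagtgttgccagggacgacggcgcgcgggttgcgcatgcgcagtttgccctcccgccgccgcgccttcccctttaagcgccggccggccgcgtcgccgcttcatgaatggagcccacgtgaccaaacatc
The BACH1 window held the TGANTCA core 48 bases before the start, which 6.57% of 35116 promoter windows of this length also held, and a GCGTG core near its far end. The NFE2L2 window held GCGTG 10 bases before the start, a core found in 32.2% of windows. Neither of the windows shown for NFE2L1 and MAFG held any of these cores, and TGACNNNGC, in 10.9% of windows, was in none of the windows shown. BACH1 has 3 such windows in RefSeq, NFE2L2 and NFE2L1 have 2 each and MAFG has 1. Of those not shown, the NFE2L1 window held GCGTG 96 bases before its start and the NFE2L2 window held it 135 bases before. Neither of the BACH1 windows not shown held any of the cores.

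Total counts per library lay between 630654 and 5994186 for NCI-H1373 and between 1769114 and 6938453 for NCI-H647. Shallow NCI-H1373 libraries were the 21 with replicate number 3 at 6 h or 2 and 3 at 24 h (630654 to 2011404 counts), and the other 21 were deep (2481690 to 5994186 counts), with both kinds in every group. Epithelial markers summed to 2032.5 to 7231.2 CPM in NCI-H1373. They summed to 292.1 to 2226.5 CPM in NCI-H647, where EPCAM lay between 0.339 and 6.58 CPM and CDH1 was at 0 in 17 of 42 libraries, so these defining epithelial markers were at or near 0 there. Fibroblast markers reached 12.8 CPM in sum, endothelial markers 9.54 CPM and leukocyte markers 3.88 CPM, and CD3E was at 0 in all 84 libraries. CPM values are scaled for composition (TMM), and a gene is called higher or lower where the edgeR quasi-likelihood test gave an adjusted p under 0.05 over all genes tested.

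TIPARP, the gene of the inhibited enzyme and itself a target of the aryl hydrocarbon receptor, stood at 41.9, 25.1 and 43.4 CPM in the DMSO libraries of NCI-H1373 at 24 h, and all 18 treated libraries were higher (45.3 to 108.6 CPM). Its pooled log2 change there was 1.04 ± 0.28 (adjusted p = 0.0118), and it was 1.18 ± 0.27 at 6 h (adjusted p = 0.0244). In NCI-H647 the pooled values were 0.29 ± 0.52 and 0.27 ± 0.53 and were not called.

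After 24 h in NCI-H1373, MAFG, BACH1 and NFE2L2 transcripts were lower in treated than in vehicle cells, while NFE2L1, KEAP1 and MAFF were not called. The pooled comparison set the mean of the 6 treatments, 18 libraries, against the 3 DMSO libraries of the same time. It called 12.1% of 12832 genes, and 3 of the 6 members with a test were lower and 0 higher. The median log2 change of those 6 was −0.46, beside −0.01 over all genes.

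MAFG, a small MAF, read 52.5, 74.9 and 27.8 CPM in the 3 DMSO libraries of NCI-H1373 at 24 h. The 18 treated libraries lay between 19.1 and 44.5 CPM with a median of 27.6. DMSO replicates 1 and 2 were above every treated library, DMSO replicate 3 lay inside the treated range, and 9 of 18 treated libraries were below all DMSO libraries. MAFG was 1.87-fold lower in treated libraries than in the vehicle of the same time (log2 −0.90 ± 0.21, adjusted p = 0.00492). Within replicate numbers, which in this line also separate the deep from the shallow libraries, the log2 ratio of the treated mean to DMSO was −0.89, −1.23 and −0.03. DMSO replicate 3 was the shallowest library and held 16 MAFG counts. The call was lost without DMSO replicate 2 (−0.57 ± 0.26, adjusted p = 0.181).

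BACH1, the haem-sensing repressor, read 22.7, 23.1 and 10.4 CPM in DMSO at 24 h in NCI-H1373, the last from 6 counts. Treated libraries ranged from 1.25 to 19.9 CPM with a median of 8.61. DMSO replicates 1 and 2 again exceeded all treated libraries, and 12 of 18 treated libraries were below all DMSO libraries. BACH1 was 2.28-fold lower in treated libraries than in the vehicle of the same time (log2 −1.19 ± 0.35, adjusted p = 0.0231). Within replicate numbers the ratio was −1.14, −1.40 and −0.36 on the log2 scale. Without DMSO replicate 1 the call was lost at −1.09 (adjusted p = 0.215), and without DMSO replicate 2 at −1.06 (adjusted p = 0.138).

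NFE2L2, the antioxidant activator, read 106.4, 82.6 and 45.1 CPM in the same DMSO libraries. The treated libraries lay between 36.2 and 81.9 CPM, median 48.7. DMSO replicates 1 and 2 were above them all and replicate 3 within them, with 5 of 18 treated libraries below all DMSO libraries. NFE2L2 was 1.57-fold lower (log2 −0.65 ± 0.20, adjusted p = 0.0237), with ratios of −0.99, −0.52 and −0.04 within replicate numbers. This call was lost without DMSO replicate 1 (−0.41, adjusted p = 0.429) and without DMSO replicate 2 (−0.64, adjusted p = 0.102).

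The other NCI-H1373 members gave values that were not called at 24 h. NFE2L1, the proteasome gene activator, read 133.6, 183.1 and 142.3 CPM in DMSO against 88.3 to 166.2 CPM in treated libraries, a log2 difference of −0.28 ± 0.15 (adjusted p = 0.251). KEAP1 read 56.3, 67.7 and 29.5 CPM in DMSO against 42.6 to 78.5 CPM, a difference of 0.08 ± 0.22 whose interval of 2 SE ran from −0.36 to 0.52. Of the epithelial markers 4 of 5 were higher in treated cells, in a comparison that called 12.1% of all genes. On the log2 scale KRT18 was higher by 1.46 ± 0.24 (adjusted p = 0.00015), KRT19 by 1.12 ± 0.22, KRT8 by 0.79 ± 0.20 and EPCAM by 0.39 ± 0.13. The vehicle means of KRT18, KRT19, KRT8, EPCAM and CDH1 were 1784.9, 994.6, 642.1, 397.2 and 25.7 CPM at 6 h. At 24 h they were 801.4, 613.6, 459.5, 285.6 and 20.9 CPM. CDH1, at 20.8 to 21 CPM in DMSO, was the marker not called, though all 5 had an unadjusted p under 0.05. With RBN-2397 at 300 nM alone 3 of the 5 were called higher and 1 lower. The part of these marker differences in the members' values was not tested.

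MAFK, another small MAF, had the highest ratio between its group means among the 7 genes in NCI-H1373. At 6 h its DMSO libraries read 1.65, 2.69 and 5.0 CPM, from 8, 5 and 8 counts, and at 24 h they read 18.7, 33.8 and 6.94 CPM, from 70, 66 and 4 counts. The vehicle was the lowest of the 14 groups at 6 h (mean 3.11 CPM) and the highest at 24 h (mean 19.8 CPM), a ratio of 6.37. Treated libraries changed far less between the times, with medians of 5.18 CPM (1.47 to 11.2) at 6 h and 4.72 CPM (3.08 to 23.8) at 24 h. At 6 h 12 of 18 treated libraries were above all DMSO libraries and at 24 h 15 of 18 were below them all.

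By treatment at 24 h MAFK in NCI-H1373 read 3.26, 4.26 and 5.18 CPM with RBN-2397 at 10 nM. It read 5.99, 14.9 and 3.75 CPM at 30 nM and 4.17, 5.84 and 3.08 CPM at 300 nM. RBN-2397 at 10 and 300 nM thus lay wholly below the vehicle, and at 30 nM overlapped it. For RBN012337 the values were 5.24, 3.84 and 3.39 CPM at 3 nM, 4.12, 5.53 and 5.69 CPM at 10 nM, and 18.9, 23.8 and 3.73 CPM at 100 nM. The highest RBN012337 dose overlapped the vehicle and the 2 lower doses did not. The log2 difference from DMSO ran from −2.36 with RBN-2397 at 10 nM to −0.44 with RBN012337 at 100 nM.

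At 6 h the MAFK libraries of NCI-H1373 read 5.14, 7.91 and 2.9 CPM, 9.46, 3.9 and 2.68 CPM, and 11.2, 4.83 and 5.02 CPM with RBN-2397 at 10, 30 and 300 nM. For RBN012337 at 3, 10 and 100 nM the libraries read 7.25, 5.71 and 8.73 CPM, 5.22, 6.24 and 6.48 CPM, and 1.47, 3.53 and 5.01 CPM. The 2 lower RBN012337 doses did not overlap the vehicle and the other 4 treatments did. Log2 differences ran from 0.11 with RBN012337 at 100 nM to 1.36 with RBN-2397 at 300 nM.

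**Figure D1:**
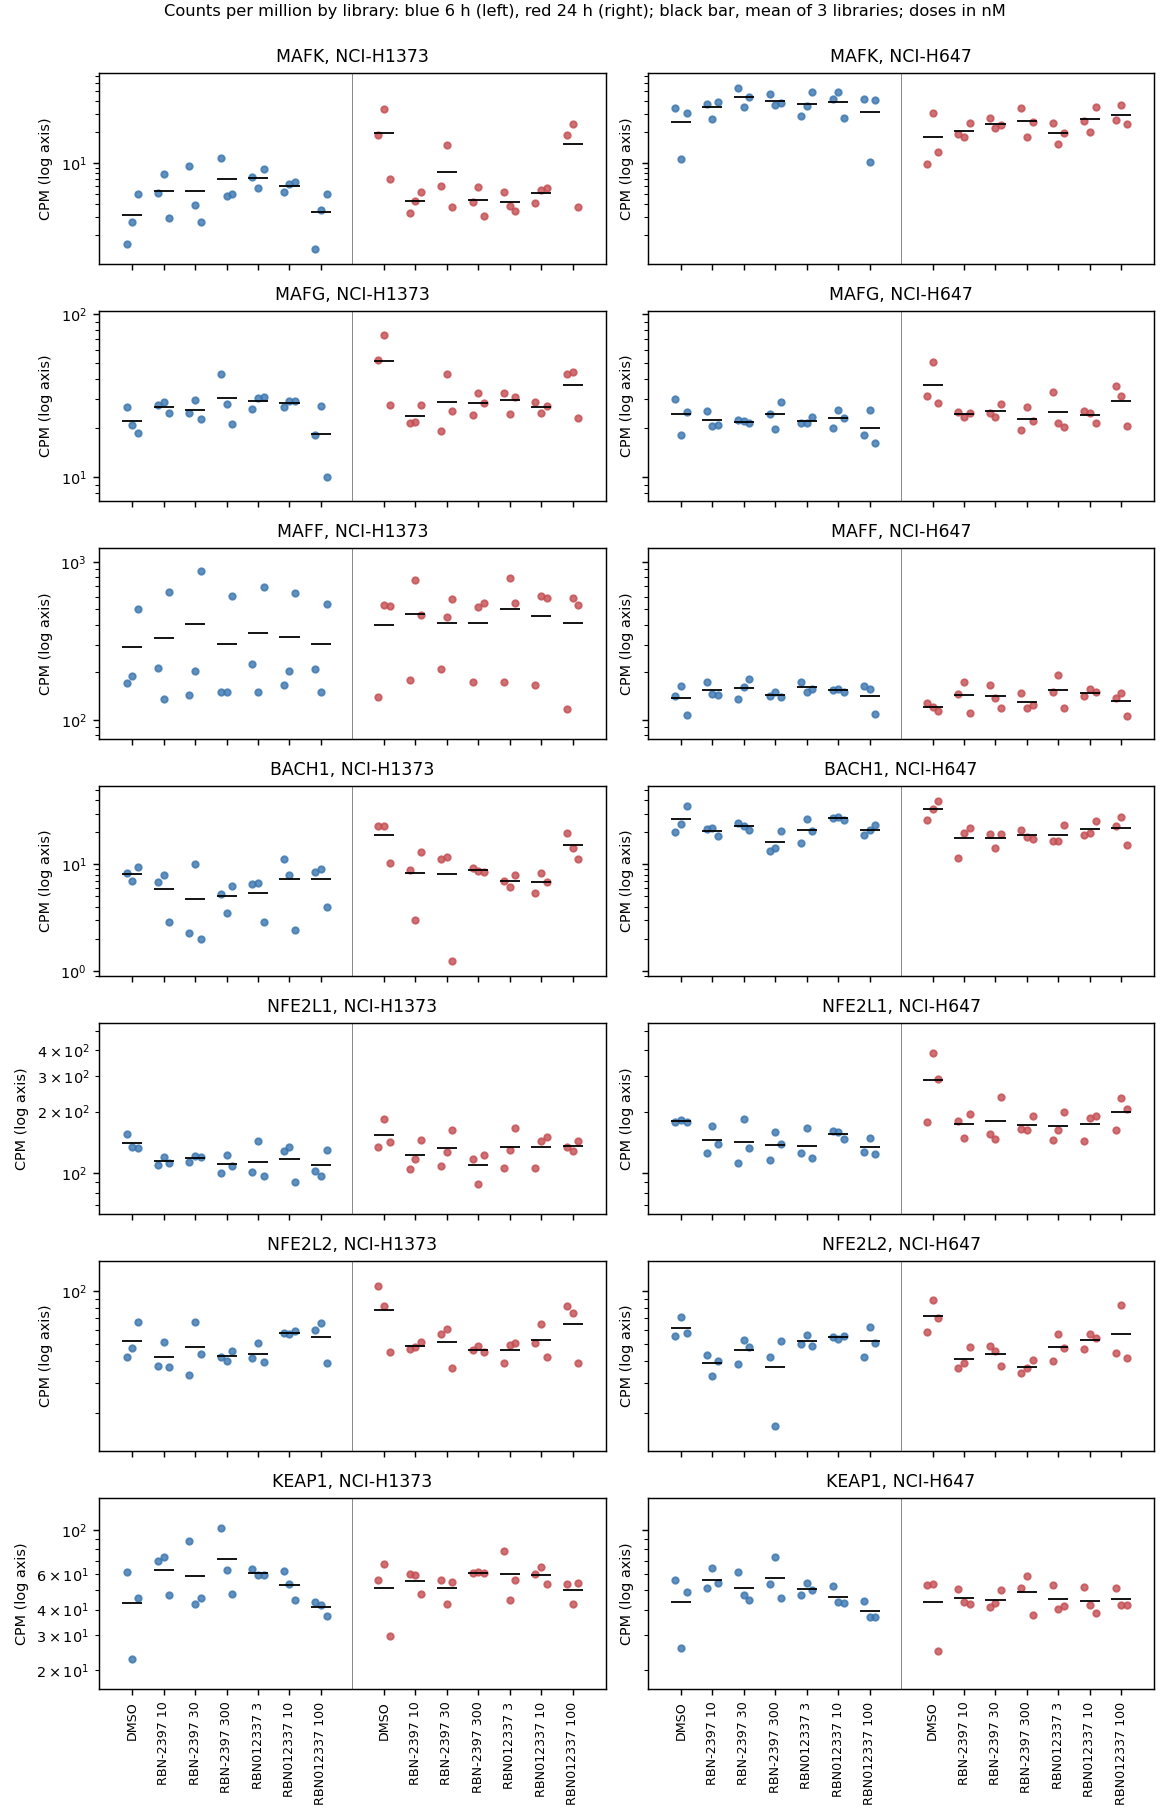
CPM of the 7 genes (rows) in NCI-H1373 (left) and NCI-H647 (right) on a log axis, 1 point per library, blue for 6 h and red for 24 h, with a black bar at the mean of the 3 libraries of a group. In NCI-H1373 the 24 h vehicle mean of MAFK was 19.8 CPM, and MAFF fell into bands of 117.0 to 225.6 and 446.8 to 869.0 CPM.

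MAFF, the remaining small MAF, differed between the shallow and deep libraries of NCI-H1373. These classes follow replicate number and time, so depth cannot be told apart from anything else that such libraries share. Its 21 shallow libraries read 446.8 to 869.0 CPM and its 21 deep libraries 117.0 to 225.6 CPM, with no overlap. The DMSO libraries read 171.1, 189.8 and 500.8 CPM at 6 h and 138.9, 532.3 and 525.8 CPM at 24 h, of which the high values are the shallow ones. A term for the shallow libraries gave a log2 difference of 1.85 ± 0.08 for MAFF (adjusted p = 2.07e-21), in a comparison that called 24% of genes. MAFG, BACH1, NFE2L1, NFE2L2 and KEAP1 were not called for that term.

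Within a depth class MAFF of treated and vehicle libraries overlapped or lay close. At 24 h the 12 shallow treated libraries ran from 446.8 to 794.3 CPM around DMSO values of 525.8 and 532.3 CPM, and the 6 deep ones from 117.0 to 209.0 CPM around a DMSO value of 138.9 CPM. At 6 h the 6 shallow treated libraries ran from 541.6 to 869.0 CPM, above the 1 DMSO value of 500.8 CPM, and the 12 deep ones from 135.3 to 225.6 CPM around 171.1 and 189.8 CPM. The pooled differences were 0.24 ± 0.68 at 6 h and 0.14 ± 0.68 at 24 h on the log2 scale, and neither was called. In NCI-H647 MAFF lay between 106.7 and 193.8 CPM in all 42 libraries.

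**Figure D2:**
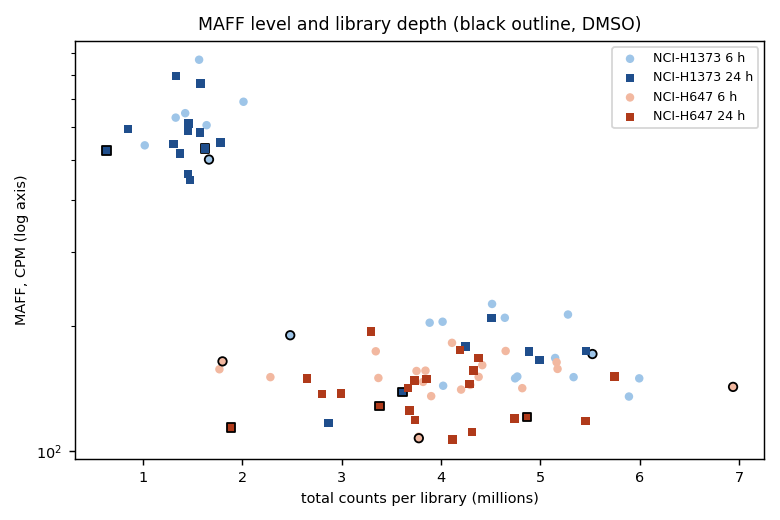
MAFF CPM (log axis) against total counts per library, 1 point per library, by line and time, with a black outline for DMSO. The 21 shallow NCI-H1373 libraries lie at 446.8 to 869.0 CPM, above every other library.

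At 6 h no member with a test was called in either line. The pooled comparison in NCI-H1373 called 1.16% of genes and 0 of 6 members (0 with an unadjusted p under 0.05, and 0 with DESeq2). NFE2L1 came nearest, with DMSO libraries at 155.7, 133.9 and 132.4 CPM and treated libraries at 89.9 to 143.4 CPM, of which 16 of 18 were below all DMSO libraries (log2 −0.30 ± 0.15, adjusted p = 0.352). KEAP1 was at 0.40 ± 0.22 (adjusted p = 0.404), from DMSO values of 61.7, 22.6 and 45.6 CPM and treated values of 37.0 to 102.5 CPM. In NCI-H647 0.0135% of 14789 genes and 0 of 7 members were called (2 with an unadjusted p under 0.05, and 0 with DESeq2).

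The NCI-H647 members nearest to a call at 6 h were NFE2L1 and NFE2L2. NFE2L1 read 178.1, 182.7 and 177.6 CPM in DMSO and 111.9 to 183.4 CPM in treated libraries, with 17 of 18 below all DMSO libraries and 1 above them (log2 −0.36 ± 0.17, adjusted p = 0.515). NFE2L2 read 55.7, 71.2 and 57.2 CPM in DMSO and 17 to 62.3 CPM in treated libraries, 16 of them below all DMSO libraries (−0.41 ± 0.19, adjusted p = 0.508). For NFE2L1 in both lines at 6 h nearly every treated library was below the vehicle, by less than the test could call.

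After 24 h in NCI-H647, MAFG, BACH1, NFE2L2 and NFE2L1 were lower in treated than in vehicle cells. The pooled comparison called 4.98% of genes, and 4 of 7 members were lower and 0 higher, with a median log2 change of −0.59 over the 7 beside −0.02 over all genes. The responses of MAFF, MAFK and KEAP1 were not called.

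NFE2L1 read 177.8, 388.0 and 289.3 CPM in the DMSO libraries of NCI-H647 at 24 h and 144.0 to 237.1 CPM (median 172.3) in treated libraries. DMSO replicates 2 and 3 were above all 18 treated libraries and replicate 1 above 9 of them. NFE2L1 was 1.62-fold lower in treated libraries than in the vehicle of the same time (log2 −0.70 ± 0.16, adjusted p = 0.00867). The call was lost without DMSO replicate 2 (−0.39, adjusted p = 0.283) and without DMSO replicate 3 (−0.66, adjusted p = 0.0632).

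BACH1 read 26.3, 33.0 and 39.1 CPM in DMSO and 11.5 to 28.0 CPM (median 19.4) in treated libraries, so that 17 of 18 treated libraries were below all DMSO libraries. It was 1.7-fold lower (log2 −0.77 ± 0.18, adjusted p = 0.0104), with ratios of −0.51, −0.76 and −0.93 within replicate numbers. Without DMSO replicate 2 the value was −0.74 (adjusted p = 0.0889) and without DMSO replicate 3 −0.61 (adjusted p = 0.131).

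NFE2L2 read 58.1, 89.3 and 70.0 CPM in DMSO and 34.2 to 83.7 CPM (median 44.9) in treated libraries, 17 of 18 below all DMSO libraries. It was 1.6-fold lower (log2 −0.68 ± 0.18, adjusted p = 0.0231), with ratios of −0.48, −0.75 and −0.65 within replicate numbers. The call was lost without DMSO replicate 2 (−0.48, adjusted p = 0.272) and without DMSO replicate 3 (−0.68, adjusted p = 0.0892). For NFE2L2 and BACH1 in this line the vehicle and treated libraries were nearly separate.

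MAFG read 31.5, 50.7 and 28.7 CPM in DMSO and 19.5 to 36.3 CPM (median 24.8) in treated libraries, 15 of 18 below all DMSO libraries. It was 1.51-fold lower (log2 −0.59 ± 0.17, adjusted p = 0.0294). DMSO replicate 2 stood highest, and without it the value was −0.26 (adjusted p = 0.541). Without a filter on low counts MAFG was at −0.55 (adjusted p = 0.119) and not called.

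MAFK in NCI-H647 moved with no call. Its DMSO libraries read 34.4, 11.0 and 30.6 CPM at 6 h and 9.89, 30.9 and 12.7 CPM at 24 h, against treated libraries at 10.3 to 53.6 CPM (median 39.1) and 15.4 to 36.9 CPM (median 24.4). Vehicle and treated libraries overlapped at both times. The pooled differences were 0.50 ± 0.30 (adjusted p = 0.694) and 0.36 ± 0.31 (adjusted p = 0.565) on the log2 scale. KEAP1 was at 0.02 ± 0.17 at 24 h, with an interval of 2 SE from −0.32 to 0.37.

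**Figure D3:**
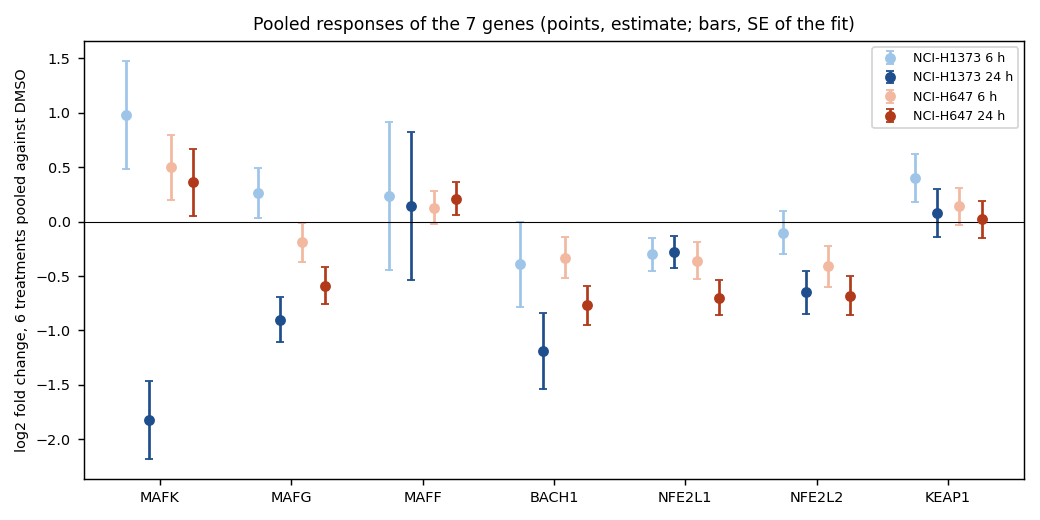
Log2 fold change of the 6 treatments pooled against DMSO for each gene, points for the estimate and bars for its SE, by line (blue NCI-H1373, red NCI-H647) and time (pale 6 h, dark 24 h). At 24 h MAFG, BACH1, NFE2L1 and NFE2L2 lie below 0 in both lines (NFE2L1 at −0.28 in NCI-H1373 was not called), and MAFK lies at −1.82 in NCI-H1373 and 0.36 in NCI-H647.

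Difference tests between the lines did not separate these responses. The test of NCI-H1373 minus NCI-H647 called 0% of 16177 genes at 6 h and 0.47% at 24 h, and 0 of the 6 members with a test at either time (0 with DESeq2, and 0 with an unadjusted p under 0.05 at both times). At 24 h the difference was 0.41 ± 0.23 for NFE2L1 (adjusted p = 0.648), −0.45 ± 0.39 for BACH1, −0.33 ± 0.28 for MAFG and 0.01 ± 0.28 for NFE2L2. The intervals of 2 SE were wide, from −1.24 to 0.34 for BACH1 and from −0.05 to 0.87 for NFE2L1. For MAFK the difference at 24 h was −2.23 ± 0.49, given as a description.

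The 6 treatments were also compared with DMSO 1 at a time, all 6 against the same 3 vehicle libraries. In NCI-H1373 at 6 h, RBN-2397 at 10, 30 and 300 nM called 0.312%, 0.0234% and 1.61% of genes, and RBN012337 at 3, 10 and 100 nM called 0.468%, 0.195% and 0%. At 24 h the shares in the same order were 7.33%, 2.16% and 11.9%, then 8.5%, 2.68% and 0.195%. In NCI-H647 they were 0.00676%, 0% and 0.00676%, then 0%, 0% and 0% at 6 h. At 24 h they were 1.8%, 0.94% and 3.38%, then 0.676%, 0.176% and 0.101%.

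At 24 h these single comparisons made 4 calls among the members of NCI-H1373 and 2 among those of NCI-H647, all lower. In NCI-H1373 MAFG was called with RBN-2397 at 10 and 300 nM, and NFE2L2 with RBN-2397 at 300 nM and with RBN012337 at 3 nM. In NCI-H647 NFE2L2 (−1.01 ± 0.25, adjusted p = 0.0201) and NFE2L1 (adjusted p = 0.0495) were called with RBN-2397 at 300 nM. At 6 h there were 0 member calls in either line, with edgeR or with DESeq2, and 1 test in NCI-H1373 and 3 in NCI-H647 had an unadjusted p under 0.05.

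Estimates for MAFG, BACH1, NFE2L1 and NFE2L2 were below 0 at 24 h in 6 of 6 treatments in both lines. In NCI-H1373 they ran from −1.18 to −0.54 for MAFG, −1.58 to −0.37 for BACH1, −0.48 to −0.18 for NFE2L1 and −0.83 to −0.30 for NFE2L2 on the log2 scale. In NCI-H647 they ran from −0.74 to −0.36, −0.90 to −0.57, −0.77 to −0.52 and −1.01 to −0.36. The smallest in size of the 6 values was that of RBN012337 at 100 nM for all 4 genes in both lines. This treatment also called the fewest genes of the 6 at 24 h in each line.

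**Figure D4:**
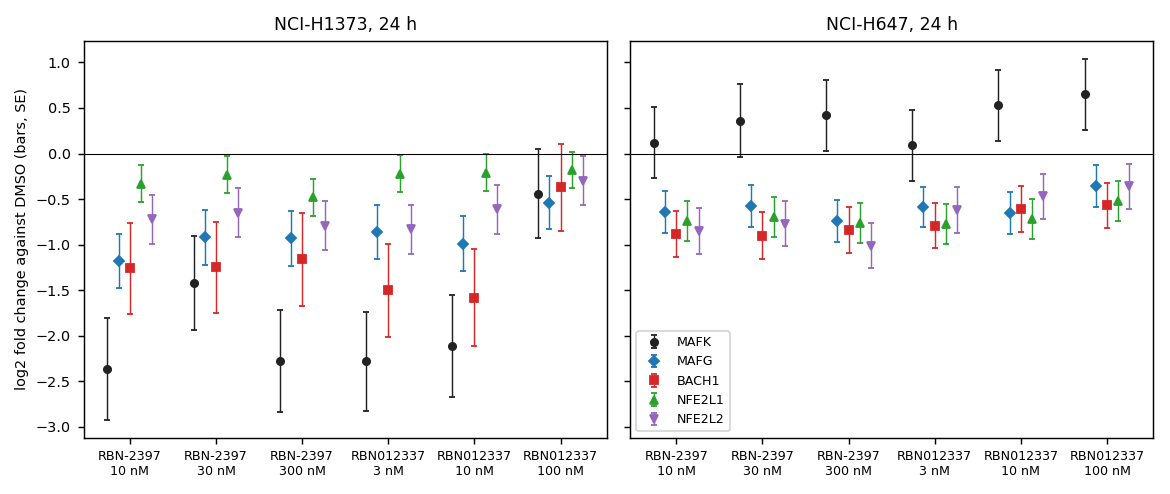
Log2 fold change against DMSO at 24 h by treatment for MAFK, MAFG, BACH1, NFE2L1 and NFE2L2, with the SE of the fit as bars, in NCI-H1373 and NCI-H647; all treatments of a line share 3 DMSO libraries. In both lines RBN012337 at 100 nM lies nearest to 0 for MAFG, BACH1, NFE2L1 and NFE2L2.

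That difference between doses was not called. RBN012337 at 100 minus 3 nM gave 1.14 ± 0.51 for BACH1 (adjusted p = 0.3) and 0.52 ± 0.27 for NFE2L2 (adjusted p = 0.379) in NCI-H1373 at 24 h, a comparison that called 0.125% of genes. For MAFK it was 1.84 ± 0.55, given as a description. The same comparison in NCI-H647, and RBN-2397 at 300 minus 10 nM in both lines, called 0% of genes. Members with a test gave 0 calls over these 4 comparisons, with edgeR or with DESeq2, and 1 unadjusted p under 0.05.

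The inhibitors were given at 1 shared dose, 10 nM, and were compared there in each line at each time, 4 pairs in all. Each of the 4 comparisons called 0% of genes. Among 26 member differences (RBN-2397 minus RBN012337) 0 were called, with edgeR or with DESeq2, and 1 had an unadjusted p under 0.05, at 0.0496. The lowest p adjusted over the 4 pairs was 0.183. The differences ran from −0.52 to 0.33 on the log2 scale, and their intervals of 2 SE reached from −1.77 to 1.79, so differences of several-fold in single genes lie inside them. The other doses differ between the compounds and are only set side by side above.

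The vehicle itself differed between times, and these libraries are the same ones that enter the treatment comparisons. In NCI-H1373 DMSO at 24 h minus 6 h called 9.12% of genes and 1 of 6 members. MAFG rose from 26.9, 21 and 18.7 CPM to 52.5, 74.9 and 27.8 CPM, with no overlap (log2 1.27 ± 0.30, adjusted p = 0.00795), and the call was lost without DMSO replicate 2 at 24 h (0.94 ± 0.32, adjusted p = 0.0957). BACH1, at 8.23, 6.99 and 9.37 CPM at 6 h, gave 1.29 ± 0.50 (adjusted p = 0.0977). NFE2L2, at 42.2, 47.3 and 66.2 CPM at 6 h, gave 0.66 ± 0.27 (adjusted p = 0.117). MAFK gave 2.92 ± 0.58, given as a description. For the members called lower at 24 h, the treated means were 29.2 CPM for MAFG, 9.02 for BACH1 and 51.6 for NFE2L2. The 6 h vehicle means were 22.2, 8.19 and 51.9 CPM in that order, and this comparison was not tested.

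In NCI-H647 the vehicle comparison called 0.284% of genes and 0 of 7 members (2 with an unadjusted p under 0.05, 0 with DESeq2). NFE2L1 gave 0.69 ± 0.22 (adjusted p = 0.185) and MAFG 0.60 ± 0.23 (adjusted p = 0.285). Treated means at 24 h were 178.3 CPM for NFE2L1, 25.2 for MAFG, 19.4 for BACH1 and 46.4 for NFE2L2. The 6 h vehicle means were 179.4, 24.6, 26.5 and 61.3 CPM in that order, and this comparison was not tested. The DMSO group at 24 h had the highest mean of the line's 14 groups for MAFG, BACH1, NFE2L1 and NFE2L2 in both lines, and for MAFK in NCI-H1373. For MAFK in NCI-H647 it had the lowest, 17.8 CPM, and RBN-2397 at 30 nM and 6 h the highest, 44.4 CPM.

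Ordered by mean, neighbouring groups were hardly separate. Each member gave 13 neighbouring pairs in a line, and a pair differed by more than the larger of its SDs in 1 of 13 for BACH1 in NCI-H1373, in 1 of 13 for MAFK in NCI-H647, and in 0 of 13 for the other 12 combinations of member and line. The ratio of the highest to the lowest group mean in NCI-H1373 was 6.37 for MAFK, 3.92 for BACH1, 2.79 for MAFG, 1.87 for NFE2L2 and 1.4 for NFE2L1. In NCI-H647 it was 2.49 for MAFK, 2.14 for NFE2L1, 2.03 for BACH1, 1.96 for NFE2L2 and 1.83 for MAFG.

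The response at 24 h minus that at 6 h uses both vehicle groups. In NCI-H1373 it was −2.80 ± 0.62 for MAFK, −1.16 ± 0.32 for MAFG, −0.79 ± 0.54 for BACH1, −0.56 ± 0.29 for NFE2L2 and 0.02 ± 0.22 for NFE2L1, all given as a description. In NCI-H647 it called 0% of genes and 0 of 7 members (0 with an unadjusted p under 0.05, 0 with DESeq2). There the values ran from −0.44 ± 0.27 for BACH1 to 0.07 ± 0.21 for MAFF.

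Between the lines in vehicle, over both times, BACH1 and NFE2L1 were lower in NCI-H1373 and MAFF higher, 3 of the 6 members other than MAFK. This comparison called 45.3% of genes, so the count of members is near the background. MAFK is described without a test here too: its DMSO means were 3.11 CPM in NCI-H1373 and 25.3 CPM in NCI-H647 at 6 h, and 19.8 and 17.8 CPM at 24 h. Its libraries were apart at 6 h (1.65 to 5 CPM against 11 to 34.4 CPM) and overlapped at 24 h. BACH1 was 2.29-fold lower (−1.20 ± 0.26, adjusted p = 0.000127) and NFE2L1 1.54-fold lower (−0.62 ± 0.15, adjusted p = 0.00042). MAFG, NFE2L2 and KEAP1 gave 0.18, −0.05 and 0.12 and were not called.

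The MAFF difference between lines was 1.38 ± 0.45 (adjusted p = 0.0103) over all DMSO libraries. It was lost when DMSO replicate 3 at 6 h (0.93, adjusted p = 0.127), replicate 2 at 24 h (1.17, adjusted p = 0.0577) or replicate 3 at 24 h (1.19, adjusted p = 0.0565) was left out of both lines at once. In NCI-H1373 these are the shallow DMSO libraries. A fit blocked on replicate number gave 0.25 ± 0.15 (adjusted p = 0.183). Its block terms were separate for each line and time, so it compared the lines at replicate 1 and not over all replicates. In NCI-H1373 replicate 1 was deep at both times. The 3 deep DMSO libraries of NCI-H1373 read 138.9 to 189.8 CPM, and the 6 of NCI-H647 107.5 to 164.3 CPM.

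Several other MAF and cap'n'collar factors were little expressed. MAF, MAFA, NRL and NFE2 had a median of 0 CPM in NCI-H1373. In the pooled comparisons 0 of 2 tested in NCI-H1373 and 0 of 3 in NCI-H647 were called at either time with edgeR, and 0 had an unadjusted p under 0.05. With DESeq2 0 were called at 24 h. Between the lines in vehicle BACH2, a relative of BACH1, was higher in NCI-H1373 (1.35 ± 0.45, adjusted p = 0.0117).

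Among 10 genes of KEAP1 and NFE2L2 protein turnover, SQSTM1, which encodes the p62 adaptor that draws KEAP1 into autophagy, fell in both lines at 24 h. It read 1542.8, 1914.5 and 605.6 CPM in DMSO and 325.5 to 837.2 CPM (median 417.9) in treated NCI-H1373 libraries, 15 of 18 below all DMSO libraries (log2 −1.55 ± 0.21, adjusted p = 3.92e-05). In NCI-H647 it read 1395.8, 3628.4 and 1458.6 CPM in DMSO and 559.7 to 1819.1 CPM (median 718.9) in treated libraries, 17 of 18 below (−1.46 ± 0.21, adjusted p = 7.15e-05). The vehicle libraries of SQSTM1 in NCI-H1373 also stood higher at 24 h than at 6 h (1.26 ± 0.32, adjusted p = 0.0121). Beside 12.1% and 4.98% of all genes called in these comparisons, 1 of the 10 rose and 1 fell in NCI-H1373 at 24 h, the other being PGAM5 (0.70 ± 0.22, adjusted p = 0.033), and 0 rose and 2 fell in NCI-H647, the other being the kinase gene GSK3B (−0.68 ± 0.20, adjusted p = 0.0373). At 6 h 0 of 10 were called in either line with edgeR, and 1 in each line had an unadjusted p under 0.05.

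The 28 antioxidant response element targets did not move as 1 group. In NCI-H1373 at 24 h 3 rose and 5 fell of 24 tested, with a median of 0.02 beside −0.01 over all genes. GCLC, the catalytic subunit of glutamate-cysteine ligase, read 196.8, 198.0 and 255.1 CPM in DMSO and 308.9 to 823.1 CPM in treated libraries, all 18 above the vehicle (log2 1.44 ± 0.23, adjusted p = 0.000138). ABCC3, an export pump, read 23.2, 28.2 and 34.7 CPM in DMSO and 34.5 to 146.7 CPM in treated libraries, 17 of 18 above all DMSO libraries (1.81 ± 0.30, adjusted p = 0.000162). The pseudogene NMRAL2P, uncertain because of its parent gene, fell by 2.44 on the log2 scale (SE 0.49, adjusted p = 0.00105).

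At 6 h GCLC was the 1 member of that list called in NCI-H1373 (0.95 ± 0.22, adjusted p = 0.0254), and 0 of 27 were called in NCI-H647 with edgeR (3 with an unadjusted p under 0.05). In NCI-H647 at 24 h 2 rose and 4 fell of 27, with a median of −0.07 beside −0.02. OSGIN1 read 98.9, 189.4 and 90.4 CPM in DMSO and 29.7 to 81.7 CPM in treated libraries, all 18 below the vehicle (−1.47 ± 0.24, adjusted p = 0.000592). PRDX1, a peroxiredoxin, read 4303.5, 5253.1 and 5863.4 CPM in DMSO and 2492.2 to 4855.5 CPM in treated libraries (−0.74 ± 0.15, adjusted p = 0.00286). ABCC3 rose by 0.92 ± 0.24 (adjusted p = 0.0196), and AKR1C2, uncertain because of its near-identical relatives, by 1.21 ± 0.34 (adjusted p = 0.0347). The lower OSGIN1 and PRDX1 values were not particular to NCI-H647. In NCI-H1373 at 24 h 14 of 18 treated libraries were below all DMSO libraries for OSGIN1 and 15 of 18 for PRDX1. Without DMSO replicate 2 the NCI-H647 counts were 0 higher and 3 lower, and without DMSO replicate 1 the NCI-H1373 counts were 2 higher and 1 lower.

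The response of GCLC differed between the lines at 24 h. In NCI-H647 it read 87.5, 50.2 and 49 CPM in DMSO and 43.8 to 78.1 CPM in treated libraries (−0.18 ± 0.19, adjusted p = 0.642). The difference of the pooled responses, NCI-H1373 minus NCI-H647, was 1.62 ± 0.29 (adjusted p = 0.00197), and GCLC was the 1 called of the 28 listed targets.

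FTL, the ferritin light chain and a target of BACH1 repression, was the haem and iron gene lower at 24 h in NCI-H1373, 1 of 7 tested (−0.70 ± 0.15, adjusted p = 0.00275). In NCI-H647 0 rose and 3 fell of 8, FTL by 0.82 on the log2 scale (SE 0.18, adjusted p = 0.00552), the biliverdin reductase gene BLVRB at −0.46 ± 0.13 (adjusted p = 0.0254) and the iron exporter gene SLC40A1 at −1.10 ± 0.32 (adjusted p = 0.0373). FTL libraries overlapped between DMSO and treatment in both lines. Of 33 proteasome subunits and assembly genes 3 fell and 0 rose in NCI-H1373 (PSMD14, POMP and PSMB1) and 2 fell and 0 rose in NCI-H647 (PSMB1 and PSMC2), with medians of −0.21 and −0.23 beside −0.01 and −0.02 over all genes. These counts are near the 12.1% and 4.98% called over all genes. Of 10 genes that process or degrade NFE2L1 protein 0 were called in either line at either time with edgeR, 0 at 24 h with DESeq2, and 3 in NCI-H1373 and 1 in NCI-H647 had an unadjusted p under 0.05 at 24 h. PECAM1, an endothelial marker near the limit of detection, was higher in treated NCI-H647 at 24 h (1.65 ± 0.41, adjusted p = 0.0129).

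**Figure D5:**
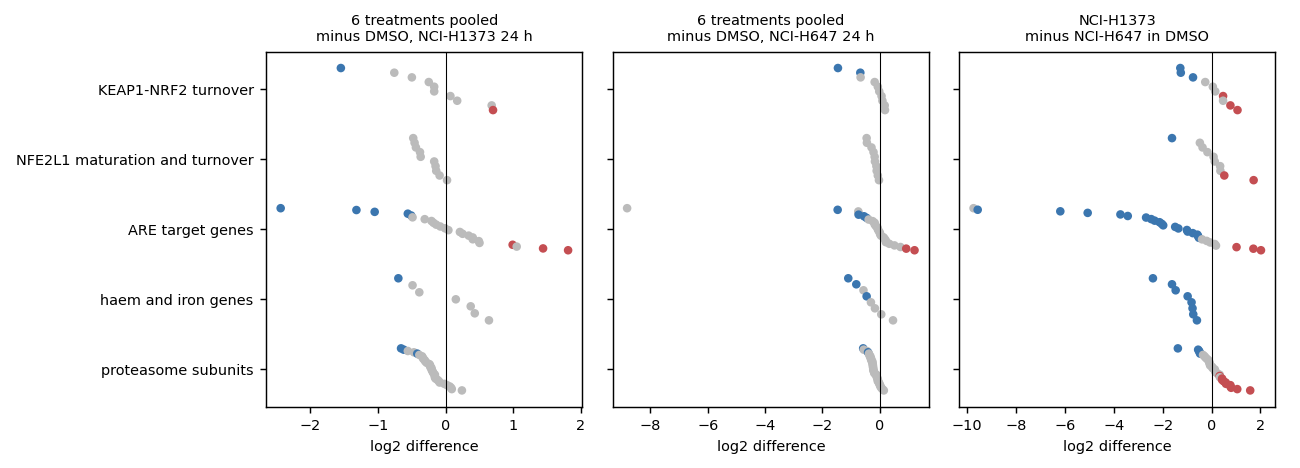
Log2 fold changes of the tested genes of each list, 1 point per gene, in the pooled 24 h comparisons and between lines in vehicle; red was called higher, blue lower, and grey not called. The outlying points at the far left are SRXN1 and AKR1C2, whose fitted values rest on libraries at or near 0 and are no bound, and between lines 19 of 28 antioxidant targets were called lower.

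Between the lines in vehicle the antioxidant targets stood lower in NCI-H1373, with 19 lower and 3 higher of 28 tested and a median of −1.19 beside −0.03 over all genes. AKR1C3 (−5.07 ± 0.25, adjusted p = 1.01e-28) and AKR1C1 (−6.19 ± 0.32, adjusted p = 2.43e-25), aldo-keto reductase genes whose reads can be shared, ME1 of NADPH supply (−1.98 ± 0.14, adjusted p = 1.12e-20) and GCLM, the modifier subunit of glutamate-cysteine ligase (−2.13 ± 0.15, adjusted p = 1.09e-19), had the smallest p-values. The 3 higher genes, named after their values were seen, were GCLC, UGDH and GPX2. All 8 haem and iron genes tested were lower in NCI-H1373, among them the ferritin genes FTL (−2.40 ± 0.17, adjusted p = 1.59e-19) and FTH1 (−1.47 ± 0.15, adjusted p = 4.26e-13). Of 33 proteasome genes 11 were higher and 5 lower, near the 45.3% called over all genes. Of 10 turnover genes 3 were higher and 3 lower, among them CUL3, the ligase scaffold for KEAP1 (−1.26 ± 0.18, adjusted p = 1.03e-08), and of 10 NFE2L1 processing genes 2 were higher and 1 lower, both beside 45.3% over all genes.

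The vehicle comparison of times in NCI-H1373 called 9.12% of all genes, and of 24 antioxidant targets tested 3 were higher at 24 h and 1 lower. The higher ones were SLC7A11 (0.98 ± 0.23, adjusted p = 0.00704), TRIM16L (0.95 ± 0.25, adjusted p = 0.0162) and NMRAL2P. The lower one was TALDO1 (−0.72 ± 0.23, adjusted p = 0.044). PGAM5 was lower (−1.44 ± 0.27, adjusted p = 0.00127) and OGT, a glycosyltransferase gene, higher (1.01 ± 0.21, adjusted p = 0.00245). In NCI-H647 0 genes of the 6 pathway lists were called between times with edgeR, and 5 of 27 antioxidant targets had an unadjusted p under 0.05.

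The genes most like each member were those with the highest Pearson r of group mean log2 CPM over the 14 groups of a line, among the genes with a mean of at least 10 CPM, 7980 in NCI-H1373 and 8227 in NCI-H647. For MAFK in NCI-H1373 they were EPHA2 (r = 0.95), TMEM127 (0.94), SRSF5, BTBD10 and C9orf64 (0.90 each), and in NCI-H647 UBA1 (0.94), F2RL1 (0.92), FRMD8, SLC7A5 and RASA3 (0.90 each). For MAFG they were C17orf80, TNFAIP1 and GBA2 (0.92 each) in NCI-H1373 and NFE2L1 (0.92), PSMD4 (0.90) and GOT1 (0.88) in NCI-H647. For BACH1 they were SRP54 and TAX1BP1 (0.93 each) and CRIPT (0.92) in NCI-H1373 and SYAP1, RAB10 and CREG1 (0.92 each) in NCI-H647. No gene was shared between the lines for these 3 members. MAFF shared AL356432.3 (0.98 and 0.92), with a further likeness in NCI-H1373 to DCP1A (0.98).

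For NFE2L2 the nearest were LINC00662 (0.96) and CYLD (0.94) in NCI-H1373 and PPIP5K2 (0.96) and NSRP1 (0.95) in NCI-H647. NFE2L1 was nearest to MTPN (0.97) and BNIP3 (0.94), and KEAP1 to MUS81 (0.96) and SNHG17 (0.96), in NCI-H1373 and NCI-H647 in that order. Among the members themselves, MAFG and MAFK had r = 0.89 and BACH1 and NFE2L2 r = 0.81 in NCI-H1373. In NCI-H647 MAFG and NFE2L1 had r = 0.92 and BACH1 and NFE2L2 r = 0.86, whereas MAFG and MAFK had r = −0.57. The 14 points share libraries, depth and scaling factors between genes, so these values are a description only.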

How the data were processed

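The authors deposited 1 table of estimated counts per gene for all 84 libraries, in which 49.4% of nonzero values were not whole. Per the submitters' processing notes Salmon 0.11.27 and hg38 were used. The annotation, strand setting and handling of molecular identifiers were not given in the sources used here, and 57845 of the 57964 gene identifiers matched GENCODE 29. The compound spelled RBN012397 in the sample labels is called RBN-2397 as in the series' design text. Estimated counts were rounded to whole numbers, since count tests need them. CPM here is the usual library-size scaling of counts, with TMM-scaled library sizes.

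Genes were filtered on low counts within each fit, which left 12832 genes in NCI-H1373, 14789 in NCI-H647 and 16177 in both, and group means were fitted with edgeR 4.0.16 (quasi-likelihood test) in R 4.3.3 with limma 3.58.1. P-values were adjusted by Benjamini-Hochberg over all genes tested, with a threshold of 0.05. All 42 libraries of a line shared 1 estimate of the spread. The ± values are standard errors of the fit. DESeq2 1.42.0 was an alternative, besides DESeq2 size factors, no filter, a replicate block, the 21 libraries of a line and time alone, and leaving out replicates. A shallow-library term and the dose comparisons were added after the data were seen. The edgeR fit of the pooled comparisons was tested on counts simulated for NCI-H1373, and the other fits were not tested so.

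The members and the pathway lists were chosen with earlier results of these data known. All 7 members are named with their values, with TIPARP. The comparison of lines in vehicle was fitted for all 7, and MAFK is left without a test in the text because its NCI-H1373 values led to its choice. Of each list the text gives counts and names up to 4 genes per comparison by smallest adjusted p. Some list genes are not reported here. The most alike genes are the 5 nearest to MAFK and the 3 nearest to each other member, of which the text prints 3 or fewer. Replicates of a group differed beyond sampling noise in all 84 pairs of libraries checked. Low totals limit genes such as MAFK and BACH1, whose counts fell to 4 and 6 in the shallowest DMSO library.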

Additional observations from a re-analysis of the deposited data

How the results depend on the processing

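Depth limits the low genes most, and the vehicle at each time is 3 libraries on which every treatment comparison of a line and time rests. The pooled 24 h calls in NCI-H1373 numbered 3 under all settings that kept every library, and those in NCI-H647 numbered 4, or 3 with no filter or with the 21 libraries of the line and time alone, where MAFG was lost (−0.55 and −0.60, adjusted p = 0.119 and 0.0543). Calls over the 6 single treatments at 24 h moved from 4 in NCI-H1373 to 7 with DESeq2, 7 with a shallow-library term added after the data were seen and 1 with the 21 libraries alone. In NCI-H647 they moved from 2 to 9 with DESeq2, and to 1 with DESeq2 size factors, with no filter and with the 21 libraries alone. The vehicle time call in NCI-H1373 moved from 1 to 2 with the shallow-library term. The share of all genes called is not given here for these alternative fits or those below. The member counts under them therefore cannot be told apart from a general gain or loss of calls. The causes were not tested.

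With the replicate number as a block the single-treatment calls at 24 h were 11 in NCI-H1373 and 11 in NCI-H647, with no share over all genes to set beside them. The pooled 24 h calls were 3 and 4, and the pooled 6 h calls stayed at 0. The block terms were separate for each line and time, so comparisons between times or lines were read at replicate 1, not over all replicates. Read so, the vehicle time calls in NCI-H1373 were 2 (MAFG, and NFE2L2 at 0.87 ± 0.26, adjusted p = 0.0185). With MAFK left out, BACH1 and NFE2L1 were called between the lines and MAFF was not. Antioxidant targets called at 24 h became 6 higher and 5 lower in NCI-H1373 and 3 higher and 7 lower in NCI-H647. Same-numbered libraries correlated above 0.1 in 60 and 58 of 63 pairs in NCI-H1373 and in 51 and 47 of 63 in NCI-H647 (6 and 24 h), with medians of 0.41 and 0.28 and of 0.20 and 0.22, against −0.27, −0.20, −0.12 and −0.11 for different numbers. These are correlations of deviations from group means, which sum to 0 over the 3 libraries of a group. The negative values for different numbers follow in part from the positive ones and are no separate check. By the same-number values such libraries tended to deviate together, but not in every pair and with no label for what a number shares. The fit without the block was therefore kept.

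Leaving out replicates gave 0 to 3 pooled 24 h calls, 0 to 11 single-treatment calls at 24 h and 0 to 3 vehicle time calls in NCI-H1373. In NCI-H647 it gave 0 to 4, 0 to 13 and 0 to 1, with 0 to 1 single-treatment calls at 6 h. Between the lines, with MAFK left out, BACH1 and NFE2L1 were called in every refit and MAFF in some, and the other counts stayed at 0. Pooled calls at 24 h were 0 in NCI-H1373 without DMSO replicate 2 and 1 without DMSO replicate 1, and 0 in NCI-H647 without DMSO replicate 2 and 1 without DMSO replicate 3. Over the alternatives MAFG ran from −1.14 to −0.57 and BACH1 from −1.39 to −1.02 in NCI-H1373 at 24 h, and MAFK from −2.11 to −1.26. Values that were not called changed sign in some of these refits. MAFF ran from −0.04 to 0.90 in NCI-H1373 at 6 h, from −0.30 to 0.41 at 24 h and from −0.02 to 0.29 in NCI-H647 at 6 h. NFE2L2 ran from −0.27 to 0.16 in NCI-H1373 at 6 h. KEAP1 ran from −0.13 to 0.37 in NCI-H1373 at 24 h, from −0.11 to 0.34 in NCI-H647 at 6 h and from −0.21 to 0.21 there at 24 h.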
